A study of Mus musculus with 4 samples.

Results

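The open chromatin of wild-type G1ER cells was described from the 2 ATAC-seq peak lists deposited for this genotype. Peaks of both lists on chromosomes 1 to 19 and X were merged wherever they overlapped or touched, and a merged region was kept when it held a peak from each list. This gave 9871 shared regions out of 13041 in the union of the wild-type lists, or 75.7%, and the union over every list of the series on these chromosomes held 15313. The series was set up to ask how loss of the chromatin remodeller CHD7 affects accessibility. Only its wild-type libraries are described here, and no comparison with the knockout was made. Each library was made from 50000 G1ER cells, labelled as wild type for CHD7 and with erythroblasts as the tissue source, kept in medium with erythropoietin and stem cell factor and given no treatment. Replicate 1 carries a label of 1 h and replicate 2 a label of 2 h, and lysates were exposed to Nextera transposase for times in that range. The labels do not say whether each replicate was its own culture, and differences between the replicates may be technical. With 1 group of 2 libraries, every value below is a description without a test.

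ATAC-seq reads out where a transposase can reach DNA. Because nucleosomes block it, peaks mark promoters, enhancers and insulators that are kept free of them. G1ER is a mouse erythroid progenitor line that lacks the Gata1 gene product and carries GATA1 fused to the ligand-binding part of the estrogen receptor. GATA1 is the zinc finger factor that drives red cell maturation by binding GATA motifs. Until estradiol activates the fusion protein, the cells keep dividing as immature erythroblasts under the receptors for stem cell factor (Kit) and erythropoietin (Epor). GATA2, MYB and RUNX1 are transcription factors of the progenitor state, whereas KLF1, the globins, haem synthesis and the membrane skeleton belong to the maturing red cell. The values thus describe 1 engineered cell line and not a tissue.

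The promoters below are shown because they span the range of what was found: CG-rich starts of a receptor, a progenitor factor and an iron importer that held a shared region, a CG-poor start with one inside the gene less than 1 kb away, a CG-rich start of a progenitor factor that did not, and the CG-poor starts of red cell genes that did not. Each sequence is the 150 bases before the start, 5′ to 3′ on the gene's strand, from RefSeq on GRCm38.p6. Capitals mark GATAA (the core bound by GATA factors), CACCC (bound by KLF-type factors) and TATAA (the TATA box core) on either strand. Kit lies at chr5:75574837-75574986 on the plus strand, Myb at chr10:21160985-21161134 on the minus strand, and Tfrc at chr16:32608746-32608895 on the plus strand. Epor lies at chr9:21963577-21963726 on the minus strand, Gata2 at chr6:88193741-88193890 on the plus strand, and Klf1 at chr8:84901832-84901981 on the plus strand. Hbb-bs lies at chr7:103827929-103828078 on the minus strand, and Hba-a1 at chr11:32283522-32283671 on the plus strand.
Kit, region over the start: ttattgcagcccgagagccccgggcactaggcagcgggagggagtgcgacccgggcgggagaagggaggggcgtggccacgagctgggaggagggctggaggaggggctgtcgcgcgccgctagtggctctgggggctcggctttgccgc
Myb, region over the start: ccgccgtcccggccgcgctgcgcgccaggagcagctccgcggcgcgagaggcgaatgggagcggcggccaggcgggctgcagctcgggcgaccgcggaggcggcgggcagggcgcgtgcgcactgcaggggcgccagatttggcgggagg
Tfrc, region over the start: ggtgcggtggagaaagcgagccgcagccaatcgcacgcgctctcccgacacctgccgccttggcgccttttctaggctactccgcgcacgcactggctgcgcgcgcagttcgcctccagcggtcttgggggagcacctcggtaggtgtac
Epor, region inside the gene: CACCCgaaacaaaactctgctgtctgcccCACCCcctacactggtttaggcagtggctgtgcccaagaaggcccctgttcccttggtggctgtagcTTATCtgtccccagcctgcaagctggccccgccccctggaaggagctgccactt
Gata2, no region within 1 kb: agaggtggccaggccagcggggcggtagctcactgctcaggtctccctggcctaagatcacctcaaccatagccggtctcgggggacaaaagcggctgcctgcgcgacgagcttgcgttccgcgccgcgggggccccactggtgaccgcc
Klf1, no region within 1 kb: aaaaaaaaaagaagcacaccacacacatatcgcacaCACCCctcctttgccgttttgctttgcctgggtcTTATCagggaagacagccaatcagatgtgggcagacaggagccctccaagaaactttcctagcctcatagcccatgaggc
Hbb-bs, no region within 1 kb: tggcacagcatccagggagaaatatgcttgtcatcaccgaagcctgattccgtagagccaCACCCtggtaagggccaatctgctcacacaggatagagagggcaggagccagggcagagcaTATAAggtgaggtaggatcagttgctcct
Hba-a1, no region within 1 kb: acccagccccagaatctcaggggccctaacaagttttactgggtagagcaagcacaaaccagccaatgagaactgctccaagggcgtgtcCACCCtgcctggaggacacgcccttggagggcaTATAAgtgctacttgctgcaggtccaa

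The stretch before Myb held 26 CG dinucleotides, that before Tfrc 18, and those before Kit and Gata2 14 each. The stretches before Epor, Klf1, Hbb-bs and Hba-a1 each held 2. Both globin promoters carried a TATAA match and a CACCC match, Klf1 carried 1 GATAA and 1 CACCC match, and Epor 1 GATAA and 2 CACCC matches. In the Kit, Myb and Gata2 stretches none of these 3 motifs was found. Such matches describe letters in the window and not binding.

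The lists held 11074 peaks for replicate 1 and 12033 for replicate 2 on the chromosomes used. Read totals are unknown. The number of fragments piled up at each summit could be worked back from the deposited fold enrichment and p-value for all but 1 peak in each list, and its median over all peaks was 19 and 22. The lowest local background was 0.787 and 1.08 fragments, so the list of replicate 2 came from the deeper library if both were processed alike. Regions called only in replicate 2 numbered 2084, against 1086 only in replicate 1. They were narrow and weak, with a median width of 253 and 228 bp and a median fold enrichment of 5.36 and 5.42. Of the weakest 25% of peaks by fold enrichment, 71.1% of replicate 1 and 52.2% of replicate 2 fell in a shared region. In the strongest 25% this was 99.9% in each.

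Over the shared regions, fold enrichment in the lists had a Spearman correlation of 0.831 (9871 regions, which share the 2 libraries), and 95.4% differed by less than 1.5-fold. Summits lay a median of 32 bp apart. The median fold enrichment, the pileup at the summit over its local background as the authors' caller gave it, was 8.70 in replicate 1 and 8.79 in replicate 2. Width had a median of 558 bp, with quartiles of 420 and 704 bp, and ran from 200 to 4542 bp. Together the regions covered 5.73 Mb.

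**Figure D1:**
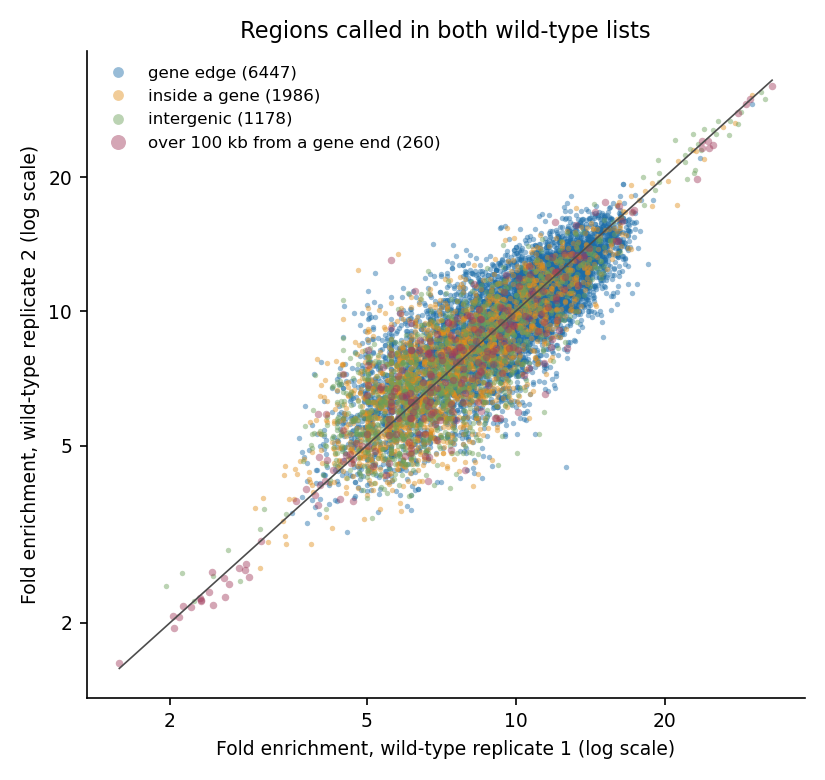
Fold enrichment of the 9871 shared regions in replicate 1 (horizontal) and replicate 2 (vertical), both on log scales, with 1 point per region coloured by its position and the line of equal values. Points follow the line over the whole range, and the regions at both ends of it lie mostly away from gene edges.

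Most of this landscape lay at genes' ends. Of the shared regions 6447 (65.3%, exact 95% interval 64.4 to 66.3, counting of regions only) lay within 1 kb of an end of a protein-coding gene, here called a gene edge. A further 1986 (20.1%) lay inside a gene, 1178 (11.9%) lay between genes within 100 kb of an end, and 260 (2.63%) lay farther away. Regions at an edge were wider than the 3424 distal ones, with a median of 608 bp against 456 bp, and held more fragments at the summit, with medians of 25 and 30 in the replicates against 16 and 20. Distal regions had their middle a median of 14.4 kb from the nearest gene end. Regions of a single list were placed differently: 28.5% of those only in replicate 1 and 28.8% of those only in replicate 2 lay at an edge. Of the edge regions 1331 (20.6%) touched the ends of more than 1 gene, so that a region can make neighbours open together.

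Strength and position moved together, though not at the very top. Regions were ranked by the percentile of their fold enrichment within each list, taking the lower of both, and divided into 20 bins. In the weakest bin 37.4% lay at a gene edge, and 8.91% lay over 100 kb from a gene end. The share at an edge was 66.8% in the tenth bin and 87.0% in the bin next to the top. It was 76.3% in the top bin. Median width was 381 bp in the weakest bin and 698 bp in the bin next to the top.

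**Figure D2:**
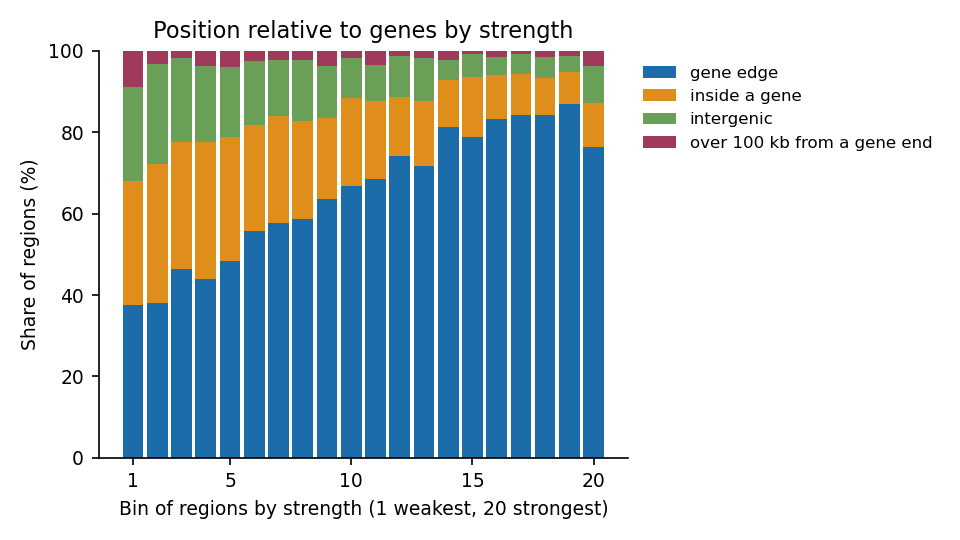
Share of shared regions (vertical, percent) at a gene edge, inside a gene, between genes and over 100 kb from a gene end, in 20 bins of equal size ordered by strength (horizontal). The gene-edge share is 37.4% in the first bin and 87.0% in the bin next to the top, and it is 76.3% in the top bin.

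The strongest regions of all were narrow and mostly not at a gene edge. Of the 10 with the highest fold enrichment 1 lay at a gene edge, and of the first 50 only 4 did, whereas 817 of the first 1000 (81.7%) did. The first of them, on chromosome 12 from 3109783 to 3110203, lay 137 kb from the nearest end of a protein-coding gene, that of Rab10, and had a fold enrichment of 33.0 and 32.1. The next lay between genes on chromosome 16 from 98107448 to 98107853 (31.3 and 31.0), with B230307C23Rik as the nearest gene. A region on chromosome 13 from 120321355 to 120321727 (31.9 and 29.9) lay 3.28 kb from Tcstv3. A region inside Chl1, a neural cell adhesion gene, on chromosome 6 from 103648954 to 103649383 had 30.0 and 30.5. These 4 regions were between 373 and 430 bp wide.

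The remaining 6 of the first 10 included the only one at an edge, at Wls, which encodes the carrier that takes Wnt proteins to the cell surface, on chromosome 3 from 159939329 to 159939761 (30.0 and 29.2). Chromosome 19 held one 103 kb from Csf2ra, from 61331203 to 61331650 (29.8 and 29.9). Those on chromosome 5 from 60042818 to 60043170 (29.3 and 29.1) and on chromosome 12 from 97061349 to 97061873 (28.1 and 27.8) lay over 1 Mb from a protein-coding gene end. The last ones lay near Rpusd4 on chromosome 9 from 35305135 to 35305676 (28.6 and 27.9) and inside a gene on chromosome 16 from 11143833 to 11144390, with Zc3h7a as the nearest end (27.8 and 26.4). Ranking by the deposited −log10 q kept 6 of the 10. By that measure the region near Rpusd4 came first, with 306 and 324, and none of the first 10 lay at an edge. Added by this ranking were regions with the nearest ends at Cdk8, Axin2, Pex2 and Filip1l. Also among the 10 strongest distal regions with a linked gene by fold enrichment were those by Asmt and Pak3 on chromosome X, Abcb11 on chromosome 2 and Dpy19l2 on chromosome 9, with fold enrichments between 25.0 and 28.1.

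Fragment counts at these summits differed less between libraries than elsewhere. The median ratio of replicate 2 to replicate 1 was 1.19 over all shared regions and 1.20 over the distal ones ranked 51st or below. Over the 49 of the 50 strongest distal regions with a recovered count it was 1.06, with quartiles of 1.03 and 1.14. For the 50 strongest edge regions it was 1.12, with quartiles of 1.04 and 1.19. The region on chromosome 12 from 97061349 had 279 fragments in each replicate. What sets the smaller ratio was not tested. No repeat or blacklist annotation was used here, so whether repeated sequence contributes to the strongest regions was not tested either.

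Behind Wls, the next 19 of the 20 strongest edge regions had fold enrichments between 15.9 and 23.5 and stood at genes of varied roles. Lars2, the mitochondrial leucine tRNA ligase, had 23.5 and 22.0 on chromosome 9 from 123461716 to 123462276. Fyco1, an adaptor for moving autophagosomes, followed with 18.9 and 17.7, and Sspn, a membrane protein of the dystrophin complex, with 17.9 and 17.8. Cbfa2t2, a corepressor of the ETO family, had 17.4 and 18.2. Vcl (vinculin, a cytoskeletal linker), Npc2 (cholesterol export from lysosomes), Scfd1 (vesicle transport), Mtmr12, Hibch (valine breakdown), Stk11 (the kinase LKB1) and Mrps14 (mitochondrial ribosome) were next. The other 8 of the 20 were Vps4a, Usp20, Zdhhc20, 1700125H20Rik, Actl6a, a subunit of BAF remodellers, Papss1, Yif1b and Fam76a.

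At the opposite end stood regions of low fold enrichment in places of dense coverage. In 40 shared regions the local background was over 10 times the list median in both lists, at 16.6 to 174 fragments in replicate 1 and 19.5 to 174 in replicate 2. None of them lay at a gene edge, 26 lay over 100 kb from a gene end, and their fold enrichment ran from 1.58 to 8.04 in replicate 1 and from 1.63 to 7.85 in replicate 2. They sat in 9 blocks, of which the largest held 16 regions on chromosome 9 from 3000026 to 3038255. The 2 widest shared regions belong here: 4542 bp on chromosome 1 from 24611588, with 391 fragments in each replicate and a fold enrichment of 2.24 in each, and 4157 bp on chromosome 17 from 39843061 (2.03 and 2.07). The other 3 of the 5 widest were edge regions at Gm20783 (2527 bp), Crlf2 (2334 bp) and Srsf6, a splicing factor (1755 bp). Whether repeated sequence contributes to the 40 was not tested.

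Few genes gathered many regions. With each region linked to the gene whose end was nearest within 100 kb of its middle, 36.2% of the 21631 protein-coding genes had a linked region. Of all genes, 6542 had 1, 990 had 2, and 84 had 4 or more. Gm40363, Prkar2b and Zfp608 had 7 each. Beyond the end of Gm40363, linked regions began at 47739861, 47744113, 47748457, 47752780, 47757737 and 47763208 on chromosome 6. Their fold enrichments were low, between 4.24 and 6.68, and whether repeated sequence contributes to them was not tested. Prkar2b, a regulatory subunit of protein kinase A, spans 103 kb on chromosome 12 and had 5 shared regions within its span or 1 kb of it. Zfp608, a zinc finger gene of 105 kb, had none at an edge. Ptma (the small nuclear protein prothymosin alpha), Zfp825, Mbp, Ptpre, Tex14 and Mid1 had 6 each. Ptma is 4.16 kb long and had 2 shared regions within its span or 1 kb of it, so that most of its linked regions lay in its surroundings. Zfp36l2, an RNA-binding protein that keeps early erythroid progenitors renewing, gathered 5 around a gene of 4.02 kb. It is 1 of 17 genes with 5 and is named because ties were ordered by gene length, the shortest first. The median gene length was 13.3 kb for genes with none, 22.7 kb with 1, 34.7 kb with 2, 60.8 kb with 3 and 69.8 kb with 4. It was 52.6 kb for the 17 genes with 5, 129.5 kb for the 6 genes with 6 and 103.2 kb for the 3 genes with 7.

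The regions stood at starts rather than at far ends. RefSeq starts were at hand for 17274 genes on 19 chromosomes, and 36.9% of these genes had a shared region within 1 kb of one. Among 12641 genes over 5 kb long with no other listed start within 2 kb of their far end, 4927 (39.0%) had a region at the end holding the start and 94 (0.744%) at the far end. Of the edge regions on these chromosomes 83.0% lay within 1 kb of a listed start. Summits within 1 kb of a start had a median position of 40 bp before it in each replicate (−40), with quartiles of −93 and 1 in replicate 1 and −92 and 0 in replicate 2. In replicate 1 74.3% of them lay before the start, and in replicate 2 74.6%. Within 150 bp of it lay 78.9% and 79.7%. Starts inside genes added 510 genes that were open at a start and not at an edge.

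**Figure D3:**
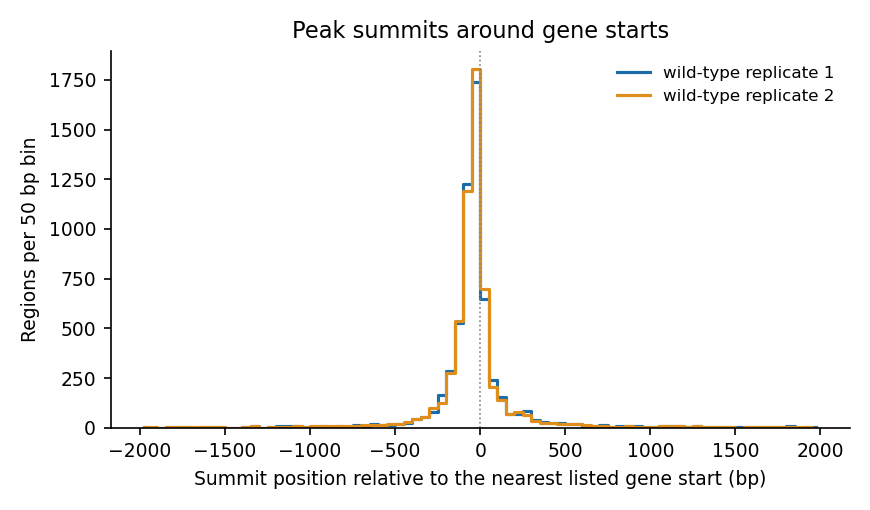
Number of shared regions (vertical) by the position of their summit relative to the nearest listed gene start (horizontal, in bp, 50 bp bins, negative before the start), for each replicate. Both curves peak in the 50 bp just before the start, with 1740 summits in replicate 1 and 1806 in replicate 2.

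Open starts were rich in CG dinucleotides, the mark of CpG-island promoters that serve broadly used genes. Over 300 bases from 250 before to 50 after the start, promoters with a shared region had a median of 24 CG and a GC content of 62.7%. Promoters without one had 6 and 52.3%. Of 5838 promoters with 0 to 4 CG 2.21% were open, of those with 10 to 14 35.0%, and of those with 25 to 29 67.8%. The share levelled off there, at 66.8% with 30 to 39 and 60.7% with 40 or more. A CG-rich start was therefore open in most but not all cases, as the Gata2 sequence above, with 32 CG over the 300 bases, shows.

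**Figure D4:**
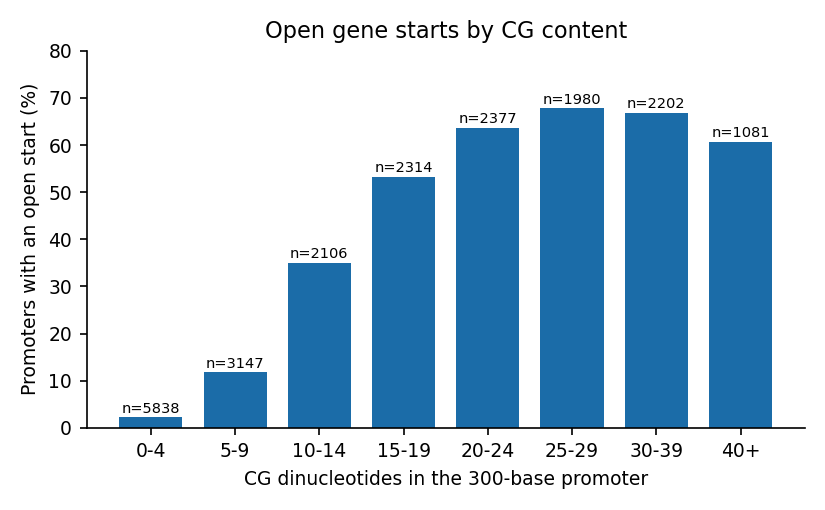
Share of RefSeq promoters with a shared region within 1 kb of the start (vertical, percent) by the number of CG dinucleotides in the 300-base promoter (horizontal), with the number of promoters above each bar. The share is 2.21% at 0 to 4 CG, 67.8% at 25 to 29 and 60.7% at 40 or more.

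Short motifs in the same 300 bases, searched on both strands, differed along with this composition. CGGAAG, the core bound by ETS-family factors, was in 40.5% of open promoters and 10.9% of the others, and in 21.3% of all. Among promoters with 20 or more CG the shares were 43.7% and 20.8%, and among those with 0 to 9 CG 15.6% and 5.63%. GATTGG, the CCAAT box read on the other strand, was in 24.2% of open promoters against 15.2% of the others and 18.4% of all. The GC box GGGCGG was in 71.5% against 33.0% and in 46.7% of all, with 25.5% against 11.3% at 0 to 9 CG, 59.2% against 55.2% at 10 to 19, and 81.0% against 82.1% at 20 or more. GATAA was less frequent in open promoters, at 14.2% against 27.1% of the others and 22.5% of all, and AGATAA, which overlaps it, at 5.23% against 12.1% and 9.68%. Within the CG classes this order held only for GATAA at 0 to 9 CG. GATAA was in 33.3% of open promoters against 36.3% of the others at 0 to 9 CG, in 21.6% against 16.9% at 10 to 19, and in 9.41% against 6.88% at 20 or more. AGATAA was in 17.8% against 16.7%, 8.38% against 7.35% and 2.73% against 2.07% in the same classes. TATAA was in 10.3% of open promoters, 28.4% of the others and 22.0% of all. CACCC was in 61.9%, 58.6% and 59.8%, but in 59.5% of open promoters against 68.1% of the others at 10 to 19 CG and in 62.8% against 71.9% at 20 or more. TGTGGT was in 11.2%, 16.7% and 14.7%, but in 13.9% against 12.8% at 10 to 19 CG and in 9.41% against 6.17% at 20 or more. TGACTCA was in 2.67%, 5.79% and 4.69%, and CANNTG in 59.5%, 74.3% and 69.0%, and both were also less frequent in open promoters within each of the 3 CG classes.

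Genes of the red cell lineage were read against a background in which 34.5% of protein-coding genes, 7469 of 21631, had a shared region at an edge, here called open. A gene without one is only a gene without a called region in both lists, since weak accessibility under the calling limit cannot be told apart from none. The label of the cells was first set against the progenitor markers Gata2, Kit, Runx1 and Myb, of which 2 of 4 were open. All 4 had 10 or more CG at a listed start. Of all genes with that many CG 58.3% were open at a start, so 2 of 4 is near that share.

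Kit, the receptor for stem cell factor, had its region on chromosome 5 from 75574743 to 75575115, over the start printed above, with a fold enrichment of 10.3 and 7.66 and 21 and 20 fragments. Myb, which keeps progenitors cycling, had one over its start on chromosome 10 from 21160952 to 21161328 (6.99 and 5.91, 12 fragments in each). In addition 2 distal regions lay 35.8 kb (5 and 7.03) and 60.7 kb (7.69 and 7.72) before the Myb start. Runx1, the core-binding factor that sets up definitive blood, had no shared region at an edge, and each of its 2 listed starts had a region in 1 list alone. At the start with the higher coordinate, on chromosome 16 from 92825901 to 92826324, it was called in replicate 1 (8.55), and at the other, from 92697301 to 92697540, in replicate 2 (5.56). Its 3 shared regions lay inside the gene, the strongest 18.5 kb before the lower of these starts. Gata2, the GATA factor of early progenitors that GATA1 replaces, had no shared region within its span or linked to it. Regions 4.09 kb before its start in replicate 1 (3.85) and 3.18 kb before it in replicate 2 (4.04) did not overlap. The data thus show Kit and Myb as open, and for Runx1 and Gata2 they do not.

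Among 20 erythroid transcription factors 9 were open. Tcf3, the E protein that pairs with TAL1, was the strongest (13.9 and 11.9), followed by Bach1, a haem-sensing repressor (12.4 and 10.9). Nfe2, a bZIP activator of globin genes, had 10.9 and 12.7, and its small Maf partner Mafk had 9.93 and 12.04. Lyl1, a relative of Tal1, had 8.64 and 8.74, Foxo3 9.15 and 7.88, and Zfpm1, which encodes the GATA1 cofactor FOG1, 7.98 and 8.57. The Foxo3 region had its middle 1.22 kb before the listed start and did not reach it. Zfpm1 also held 3 shared regions inside the gene. Stat5a, the signal carrier of the erythropoietin receptor (7.21 and 5.93), and Zbtb7a, a repressor of fetal globin (3.80 and 4.16), were weaker by fold enrichment at the edge. Zbtb7a also held a stronger shared region inside the gene, 1.36 kb past a listed start (7.94 and 9.07, 60 and 79 fragments).

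The other 11 factors, Gata1 and Klf1 among them, were not open at an edge. Gata1 had 1 shared region, inside the gene 3.63 kb beyond a listed start (5.81 and 5.90). Klf1, the activator of adult beta-globin, had 1 inside the gene 1.39 kb past its start (6.98 and 6.73). Gfi1b, a repressor that GATA1 works with, had 1 distal region 11.3 kb from an end (9.49 and 7.78), and Lmo2, the bridge in the TAL1 complex, had 1 at 63.9 kb (6.64 and 9.38). Tal1 had no shared region. In replicate 2 alone it had 4, with fold enrichments between 5.47 and 6.06, of which 1 lay at its edge. Cbfa2t3, a corepressor in that complex, had a shared region 1.70 kb before a listed start (11.4 and 8.86), just outside the 1 kb limit, and 1 more at 21.1 kb (9.76 and 9.53). In replicate 2 alone it also had one at an edge and listed start (3.47). Ldb1 held 1 at a listed start inside the gene (5.16 and 3.97). Sox6 and Bcl11a, which silence embryonic and fetal globin, and Ikzf1 held 4, 1 and 3 inside the gene. Ikzf1 likewise had one at an edge and listed start in replicate 2 alone (4.96). In the list of replicate 2 by itself 12 of the 20 factors were thus open, and in that of replicate 1 9. Stat5b had no shared region, and 1 region of replicate 1 alone at a listed start (5.05).

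No globin gene was open. None of the 7 alpha-type and beta-type genes had a shared region at an edge or start, and no region of either list touched an edge. The beta cluster, on chromosome 7 from 103812524 to 103853207, had its nearest shared region 7.72 kb beyond the Hbb-y end, from 103860926 to 103861261, with a fold enrichment of 9.84 and 9.80 and 23 and 28 fragments. This is the side on which the locus control region is known to lie. A second and weaker one followed at 17.5 kb (5.60 and 5.78), and another at 56.8 kb (8.33 and 8.94). Beside the alpha cluster, on chromosome 11 from 32276600 to 32297310, 2 shared regions lay inside Nprl3, whose introns are known to house the upstream alpha-globin enhancers. They lay 25.3 kb (7.28 and 7.54) and 30.6 kb (7.77 and 8.27) from the cluster. Each replicate thus had regions outside both clusters and none at a globin gene.

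Haem synthesis genes were open with 1 exception. Of 12, 11 had a shared region at an edge, and their fold enrichment at the strongest edge region ran from 4.69 to 10.9 in replicate 1 and from 5.02 to 10.7 in replicate 2. Ppox (10.9 and 9.59), Cpox (9.58 and 10.6), Uros (8.06 and 7.45) and Urod (7.02 and 7.04) encode enzymes of the pathway. Tmem14c (8.84 and 10.7), Abcb10 (8.82 and 9.84) and Slc25a38, the mitochondrial glycine carrier (8.43 and 7.91), serve its mitochondrial steps. Fech, Alad and Abcb6 were also open. Alas2, the erythroid form of the first enzyme, was the exception. Its single shared region lay inside the gene, 2.45 kb past the start, on chromosome X from 150549629 to 150550106 (9.04 and 10.6).

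Iron genes were similar, with 11 of 13 open at an edge and the other two, Steap3 and Fth1, holding a shared region at a listed start inside the gene model. Tfrc, the transferrin receptor whose promoter is printed above, was the strongest on chromosome 16 from 32608599 to 32609266, with a fold enrichment of 12.9 and 13.1 and 32 and 41 fragments. Aco1, an iron sensor (11.6 and 11.7), the ferritin light chain gene Ftl1 (11.0 and 12.3) and the importer Slc11a2 (10.8 and 12.3) followed. Slc25a37, which brings iron into mitochondria, had 8.41 and 9.32, Ireb2 8.16 and 8.90, Ncoa4, which releases iron from ferritin, 7.48 and 7.63, and Tfr2 8.64 and 6.94.

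Red cell membrane genes were divided, with 8 of 17 open. Add1, a cap of the membrane skeleton used in many cells, led with 13.0 and 13.8. The spectrin gene Sptb (8.09 and 8.90), Gypc (9.77 and 7.86) and Kel, a blood group antigen (8.26 and 6.49), followed. Epb42 had 5.60 and 6.26, and Epb41 5.18 and 6.70. No shared region was found in, at or linked to Slc4a1 (the anion exchanger band 3), Ank1 (ankyrin), Dmtn, Tmod1, Ermap or Aqp1. Rhag, a Rh-complex channel, had a distal one 4.34 kb before a listed start (11.3 and 11.0). Add2 gathered 5 linked regions, 4 of them inside the gene, with fold enrichments between 5.07 and 9.22.

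Genes that carry the Kit and erythropoietin signals were open in 16 of 21 cases. Pim1, a survival kinase (13.0 and 12.5), and Sh2b3, the adaptor LNK that restrains JAK2 (12.8 and 11.9), led. Grb2 (10.6 and 9.59) and Ptpn11 (9.16 and 12.5) link receptors to Ras. Jak2, the kinase of the erythropoietin receptor, had 9.09 and 7.28. Socs1 (7.80 and 9.12), Irs2 (7.73 and 7.17) and Socs2 (8.55 and 6.10) followed. Epor itself was weak, on chromosome 9 from 21962283 to 21962822, with 4.95 and 6.86 and 10 and 20 fragments. The middle of this region lay 1.02 kb inside the gene and the region did not reach the start or the sequence printed above, so it counted as open only through its overlap with the 1 kb window. Dusp6 and Spry2, which feed back on the Ras pathway, had no shared region.

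Genes of other cell types were rarely open. Of 16 stem and progenitor genes 3 were open: Mllt3 (12.2 and 11.2), Etv6 (5.51 and 6.32) and Hhex (4.96 and 6.45). Angpt1 and Erg each held 4 inside the gene without one at an edge, and 9 had none, among them Hlf, Hoxb4, Procr, Mecom, Flt3, Hoxa9 and Fli1. Among 16 megakaryocyte genes Gp9 alone was open (5.60 and 8.40), and 11 had no shared region, among them Vwf, Gp1ba, Gp6 and Selp. The Gp9 region lay 2.03 kb before the listed start and held 9 and 19 fragments. With −log10 q of at least 5, or with listed starts only, no megakaryocyte gene was open. Of 20 granulocyte and macrophage genes Csf2ra (9.33 and 9.60) and Cebpb (4.35 and 4.49) were open, and 16 had none, among them Spi1, Mpo, Elane, Cebpa and Csf1r. The Csf2ra region had its middle 1.08 kb past the listed start and did not reach it. Of 11 mast cell genes none was open at an edge, 7 had no shared region, and Il1rl1 held one at a listed start (9.62 and 8.84). None of 12 B cell genes, 12 T cell genes and 22 genes of non-blood tissues was open, and 11, 11 and 21 of them had no shared region in, at or linked to them. Over all genes 41.9% had such a region.

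Of 15 housekeeping genes 13 were open, with Pgk1 the strongest (14.1 and 13.5). Ywhaz and Actb were the 2 that were not, and both held regions elsewhere. Of the 10 CHD remodeller genes 6 were open, led by Chd8 (14.6 and 12.8), Chd6 (14.1 and 11.8) and Chd4 (10.2 and 9.44). Chd7 and Chd5 had no shared region.

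**Figure D5:**
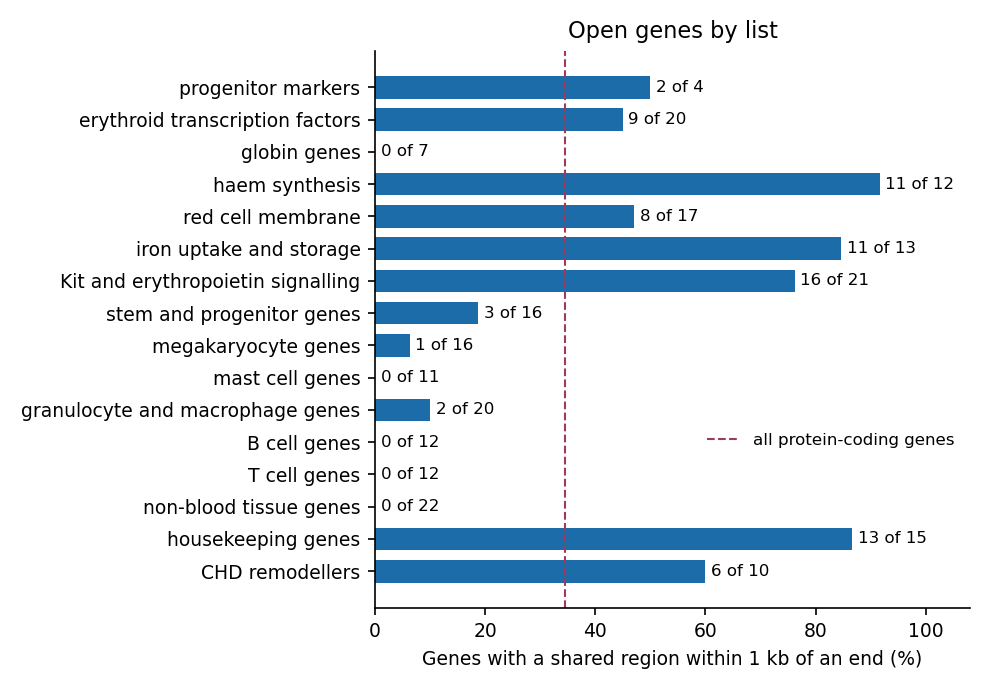
Share of genes in each of 16 lists with a shared region within 1 kb of a gene end (horizontal, percent), with the counts beside the bars and a dashed line at the 34.5% of all protein-coding genes. Haem synthesis, iron, signalling and housekeeping genes stand far above the line, and the globin, mast cell, B cell, T cell and non-blood lists are at 0.

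Promoter composition also differed between these lists, though not always in the order of their open shares. Counting each gene at its listed start with the most CG, the median over the 300 bases was 16 CG for haem synthesis genes, 23.5 for iron genes and 25 for signalling genes. It was 2 for globin genes, 8 for membrane genes, 3 for megakaryocyte and mast cell genes, 5 for B cell genes and 7.5 for T cell genes. Stem and progenitor genes, with 3 of 16 open, had a median of 16.5, close to that of haem synthesis genes, and the erythroid transcription factors, with 9 of 20 open, had 29. Among CG-poor genes, with under 10 CG at every listed start, 4.55% of 6873 were open at a start. In the 6 lists of red cell factors, globins, haem, membrane, iron and signalling 6 of 22 such genes were (27.3%), namely Epb42, Epor, Kel, Lyl1, Sh2b3 and Tfr2. In the 6 lists of megakaryocyte, mast cell, granulocyte and macrophage, B cell, T cell and non-blood genes 1 of 55 was (1.82%), Il1rl1. The Epor and Sh2b3 regions did not reach the listed start, with their middles 1.02 kb past it and 0.987 kb before it. Among genes with 10 or more CG 58.3% of 10401 were open, against 39 of 49 in the former lists and 2 of 16 in the latter. Erythroid transcription factors, at 8 of 14 (57.1%), and membrane genes, at 3 of 5, stood near the 58.3% of all genes. Haem genes were open in 9 of 9 cases, iron genes in 7 of 7 and signalling genes in 12 of 14. Outside both groups, the progenitor markers were open in 2 of 4 cases and stem and progenitor genes in 3 of 10. Housekeeping genes were open in 11 of 11 cases and CHD genes in 5 of 6. The lists were chosen with results of these data known, and no test was made.

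Gene families, taken by symbol prefix after values were seen, differed widely. Families of ribosomal, proteasome, respiratory and translation genes were open in most members: 75 of 97 cytosolic ribosomal protein genes (77.3%, exact 95% interval 67.7 to 85.2), 59 of 78 mitochondrial ribosomal protein genes, 31 of 40 proteasome subunit genes, 36 of 49 complex I subunit genes and 43 of 55 translation initiation factor genes. Zinc finger genes of the Zfp series were open in 188 of 400 cases (47.0%) and solute carriers in 121 of 389 (31.1%). Over all protein-coding genes 34.5% were open, so solute carriers stood near that share. The families were not split by promoter CG. The other families examined had few open members. Of 1110 olfactory receptor genes 2 were open (0.180%, exact 95% interval 0.0218 to 0.649), and of 355 vomeronasal receptor genes 2. Of 39 Hox genes Hoxc6 alone was open, of 112 keratin genes Krt10 alone, of 42 beta-defensin genes none, of 106 cytochrome P450 genes 4 and of 63 serpin genes 2.

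Chromosomes differed as well. Shared regions per 100 protein-coding genes ran from 24.3 on chromosome X to 62.0 on chromosome 12, and the lowest autosome was chromosome 7 with 34.9. On X 17.5% of 966 genes were open, against 35.3% of 20665 on the autosomes. Without olfactory and vomeronasal receptor genes the shares were 17.6% and 38.0%. Promoters on X had a median of 8 CG against 14, and among promoters with 20 or more CG 53.4% of 189 on X and 65.5% of 7451 on the autosomes were open. Edge regions on X held a median of 17 and 22 fragments at the summit in the replicates, against 25 and 30 on the autosomes. The part of composition and of fragment number in this gap was not tested.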

How the data were processed

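Accessibility was measured by ATAC-seq in 2 wild-type libraries, each with its own deposited peak list. Per the submitters' processing notes Bowtie2 2.2.1 and MACS2 2.1.0 were used. Several builds are named there, the peak names give GRCm38, and positions are printed on it from base 1. How peaks were thresholded, any control, the read shift, duplicates and a blacklist: not given in the sources used here. The deposited score of a peak equals 10 times its −log10 q as an integer, within 1. Fold enrichment, as deposited, is a ratio of pileup to local background at the summit. The authors' −log10 p and −log10 q were taken as they stand, and the deposited summit offset gave the summit position. All of these rank or describe peaks within their own list.

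Peaks that overlapped or touched were merged, which was checked against bedtools 2.31.1. The 10 peaks on chromosome Y and 2 mitochondrial peaks of each list were left out. The knockout lists served only to count the union of the whole series. Whole-number pileups were solved from the p-value (a Poisson tail) and the fold enrichment (1 added to pileup and to background), to within 0.001 in −log10 p. Genes, and starts with their 300-base promoters, came from RefSeq tables on GRCm38.p6, with starts for 19 of the chromosomes. Exons were not used here. Intervals are exact binomial (Clopper-Pearson) and cover counting of regions or genes only. Software was Python 3.11.15 with scipy 1.17.1, pandas 2.3.3, numpy 2.4.6 and matplotlib 3.10.9, and the steps were tested on simulated data.

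The regions described, the 16 gene lists and the naming rule were chosen with earlier results of these data known. Named by the rule were the 10 strongest regions by fold enrichment and by −log10 q, the 10 strongest distal regions with a linked gene, the 5 widest, the 10 genes with the most linked regions (ties by shortest gene), up to 8 genes of each list by edge strength, genes of a list with no region, and Gata2, Kit, Runx1, Myb, Gata1 and Chd7. Genes with regions only away from an edge, Epor, the remaining open genes of a list, the 20 strongest edge regions, the gene families by symbol prefix and the split by CG were added after values were seen. Tpsab1 was absent from the protein-coding genes of the table and left out. Values of some single genes of the lists are not reported here.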

Additional observations from a re-analysis of the deposited data

Results flagged for a closer look

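Each wild-type list held 10 peaks on chromosome Y, which lies outside the chromosomes used above. They enter no count of regions or genes, and no control library without the chromosome was at hand to set them against.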

How the results depend on the processing

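No paired analysis was possible because only 1 group was used and no test was run. The share of shared regions at a gene edge, 65.3%, was 62.3% with a 500 bp edge, 68.6% with −log10 q of at least 5, 70.4% with all gene types and 60.7% with listed starts only. The share of genes open, 34.5%, was 32.9%, 32.7%, 18.2% and 36.9% under the same settings. Of the regions 2.43% lay over 100 kb from a gene end with −log10 q of at least 5, and 2.52% with lists of equal length. With −log10 q of at least 5 the median width was 580 bp and the median distance of distal regions 14.0 kb. Leaving out the 40 regions of dense local background, an alternative chosen after seeing the data, gave 2.38% over 100 kb and a distance of 14.1 kb. Taking 1 list alone, so without replicate 1 or replicate 2, the edge share was 58.9% to 61.4%, the share of genes open 35.7% to 36.7%, the share over 100 kb 2.87% to 2.92%, the median width 438.5 to 449 bp and the distance 14.4 to 14.6 kb. The number of shared regions, 9871, was between 8793 and 9853 under the 4 other merging and calling settings. Of the genes named in the lists 82 were open, and between 70 and 86 under the alternatives. Counting 5 membrane genes rather than 8 as open with listed starts moved that list by over 1.5 times, and the counts of 2 or fewer in the megakaryocyte, mast cell and granulocyte lists moved by 1. Of the 10 genes with the most regions 4 remained when regions were counted within gene spans, and 5 with links within 50 kb. Read totals were unknown, so depth could not be equalised between the libraries.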
